A study of Ovis aries with 6 samples.

Results

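The desmosomal genes described here are 10 of the 28394 genes listed for each sheep, taken by their symbol. They are the 4 desmogleins DSG1, DSG2, DSG3 and DSG4, the 3 desmocollins DSC1, DSC2 and DSC3, and the genes of 3 plaque proteins, DSP (desmoplakin), JUP (plakoglobin) and PKP1 (plakophilin 1). All 10 were listed in every sheep, with between 2113 and 206839 total counts each, and all 10 passed the filter on low counts. Skin RNA was sequenced from 3 fine wool Super Merino (SM) sheep and 3 coarse wool Small Tail Han (STH) sheep, with 1 library of polyA RNA per sheep. The labels give an age of 9 months for every sheep, whereas the study's methods give a younger age. All were ewes kept on 1 farm and given the same feed, sampled in autumn, and the skin came from a shaved site behind the shoulder blade. The SM sheep labelled 128, 30034 and 30126 are called SM1, SM2 and SM3, and the STH sheep labelled XW3, XW5 and XW8 are called STH1, STH2 and STH3. The samples are whole skin of separate animals, so that fewer cells of a type and less RNA per cell cannot be told apart.

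A desmosome is a spot-like junction that rivets neighbouring epithelial cells together. Desmogleins and desmocollins are cadherins that bridge the gap between the cells, plakoglobin and plakophilins bind their tails on the inner side, and desmoplakin ties this plaque to the keratin filaments. In skin the cadherins change with the layer. DSG3 and DSC3 are known from the lower epidermis, DSG1 and DSC1 from the layers above it, and DSG4 from the hair follicle, while DSG2 and DSC2 also occur in simple epithelia and in heart.

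Total counts ranged from 28870583 to 44645091 per library. The count-weighted mean exon length of the counted genes was 4084, 3782 and 3487 bases in SM1, SM2 and SM3, and 3970, 4273 and 4073 bases in STH1, STH2 and STH3, so that long genes took a smaller part of the counts of SM3 than of any other sheep. In the paper's mapping statistics SM3 also had the fewest intron fragments of any sheep, though not the fewest unique fragments in total. The bearing of this on the values below was not tested. Markers of keratinocytes and of the follicle were abundant in every library. KRT5, a keratin of basal keratinocytes, had 5376 CPM (counts scaled to a common library size by edgeR's TMM method) as the mean of SM and 7003 as the mean of STH sheep. Heart muscle markers, which matter because heart also has desmosomes, summed to no more than 11.3 CPM in any SM and 13.0 CPM in any STH sheep over the 3 of 5 that could be tested.

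The 7 cadherin genes lie in 1 cluster on chromosome 23 of the sheep genome Oar_v4.0, from 25839694 to 26373756. The desmogleins are on the minus strand, in the order DSG2 (25839694 to 25873944), DSG3 (25905992 to 25941385), DSG4 (25964959 to 26008217) and DSG1 (26018699 to 26064860). The desmocollins are on the plus strand, in the order DSC1 (26209584 to 26245539), DSC2 (26262635 to 26298721) and DSC3 (26317493 to 26373756). DSG1 and DSC1 therefore face away from each other across 144723 bases in which no gene is listed. The plaque genes lie apart, JUP on chromosome 11 (41392501 to 41422145, minus strand), PKP1 on chromosome 12 (77797138 to 77830846, plus strand) and DSP on chromosome 20 (46659790 to 46703802, minus strand). On the plus strand LOC105604437 is listed across all of DSG4 and a part of DSG1, and LOC106990157 between DSG2 and DSG3. Both had a total count of 0 in all 6 sheep. Whether the counting used strand is not given in the sources used here, so that reads of LOC105604437 could not be told from those of DSG4 and DSG1.

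All 7 cadherins had lower mean levels in SM than in STH sheep, by log2 fold changes (SM over STH) from -0.29 for DSG4 to -0.89 for DSC1, whereas the 3 plaque genes lay between -0.11 and 0.19. By edgeR's quasi-likelihood test no member passed the thresholds of the study, a change of more than 1.5-fold with an adjusted p under 0.05, and of the 15320 genes tested 0% passed. The study itself reported genes past these thresholds by edgeR in CLC Genomics Workbench, KRT1, KRT10 and IVL among them. DESeq2 called 443 of the 15320 genes here, and edgeR's likelihood ratio test 352. By the quasi-likelihood test, genes with an unadjusted p under 0.05 and higher levels in STH sheep made up 10.8% of all genes. Of the 10 members 4 were among these, DSC1, DSG1, DSG3 and DSC2. In these same 4 every STH sheep lay above every SM sheep, as in 13.3% of all genes, and no member had every SM sheep above, as in 12.3% of all genes. The median log2 fold change over the 10 members was -0.40, beside 0.02 over all genes tested, and 9 of 10 were below 0, beside 48.6% of all genes.

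**Figure D1:**
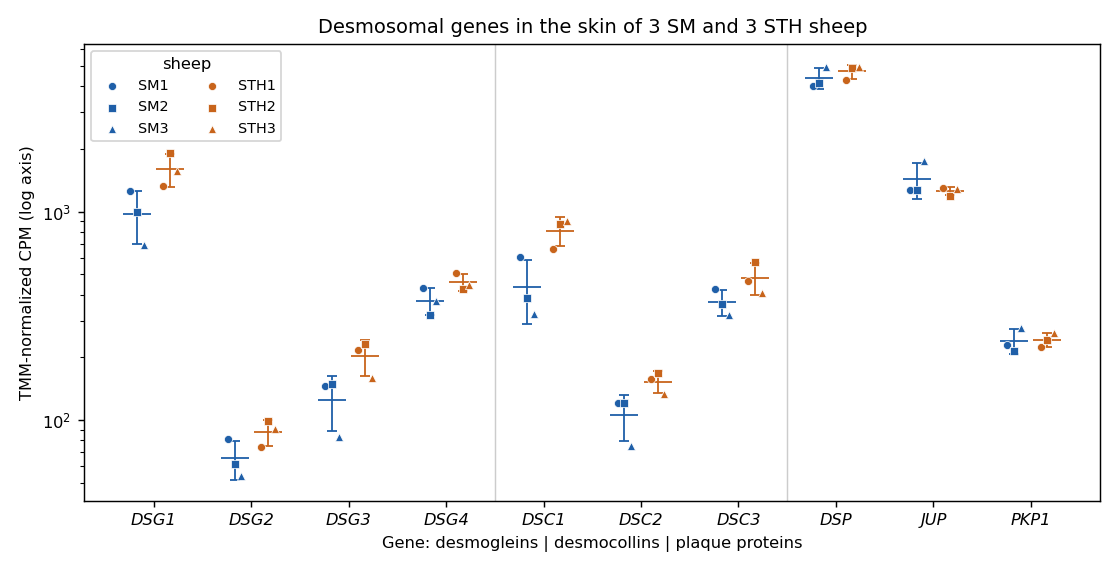
TMM-normalized CPM (log axis) of the 10 desmosomal genes in each sheep, blue for SM and orange for STH, with the mean as a bar and whiskers of 1 SD (n = 3). The breeds are separated for DSG1, DSG3, DSC1 and DSC2, with SM3 lowest in 6 of the 7 cadherins, and they overlap for DSP, JUP and PKP1.

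DSG1, the main desmoglein of the upper epidermis and the target of autoantibodies in pemphigus foliaceus, had 1251, 993 and 688 CPM in SM1, SM2 and SM3, and 1324, 1904 and 1560 in STH1, STH2 and STH3. The highest SM sheep came close to the lowest STH sheep, but the breeds did not overlap. On average SM sheep had 977 ± 282 CPM and STH sheep 1596 ± 292 CPM (each SD, n = 3). The log2 fold change was thus -0.71 with a standard error of 0.24, and edgeR's quasi-likelihood test gave it an adjusted p of 0.247. DSG3, the desmoglein of the lower epidermis and the target in pemphigus vulgaris, had 145, 149 and 82.6 CPM in the SM sheep, against 217, 232 and 158 in the STH sheep. SM3 stood well below the other SM sheep, and STH3 was nearest to the SM sheep. Its log2 fold change of -0.69 had a standard error of 0.25 and, in the same test by edgeR, an adjusted p of 0.254.

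DSG2, a desmoglein that is widespread in epithelia, was the least abundant member per exon length, with 81.2, 61.9 and 53.8 CPM in the SM sheep, against 73.9, 98.9 and 90.7 in the STH sheep. SM1 lay above STH1, so that the breeds overlapped, and the log2 fold change of -0.42 (standard error 0.19) had an adjusted p of 0.282 by edgeR's quasi-likelihood test. DSG4, whose loss causes fragile, sparse hair in mice and people, differed least among the cadherins with all 6 sheep, though not without STH2. It had 429, 320.1 and 372 CPM in the SM sheep, against 506, 424 and 442 in the STH sheep, with SM1 above STH2. Its mean was 374 ± 54.6 CPM in the SM and 457 ± 42.9 CPM in the STH sheep (each SD, n = 3). The log2 fold change, -0.29 with a standard error of 0.16, had an adjusted p of 0.337 by edgeR's quasi-likelihood test.

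DSC1, the desmocollin of the upper epidermis, had the largest fold difference of the 10 genes with all 6 sheep, at 603, 385 and 323 CPM in the SM sheep, against 661, 871 and 899 in the STH sheep. SM1 was again nearest to STH1. The mean of the STH sheep, 810.4 ± 129.8 CPM, was 1.85-fold that of the SM sheep, 437 ± 147 CPM (each SD, n = 3). The log2 fold change was -0.89 with a standard error of 0.25, an unadjusted p of 0.00602 and an adjusted p of 0.240 by edgeR's quasi-likelihood test. DSC1 was the only member to pass both thresholds in other tests of all 6 sheep, with an adjusted p of 0.0281 by DESeq2, where 2.89% of all genes passed, and of 0.0426 by edgeR's likelihood ratio test, where 2.3% passed. Over all alternatives its adjusted p ranged from 0.0169 to 0.627.

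DSC2, the desmocollin found in most epithelia, had 121 CPM in both SM1 and SM2 and 75.5 in SM3, against 158, 168 and 133 in the STH sheep. No SM sheep reached the lowest STH sheep, and the log2 fold change of -0.53, with a standard error of 0.21, had an adjusted p of 0.260 by edgeR's quasi-likelihood test. DSC3, the desmocollin of the basal layer, had 425, 361 and 319 CPM in the SM sheep, against 464, 571 and 409 in the STH sheep. SM1 lay above STH3, so that the breeds overlapped, and the log2 fold change of -0.39, with a standard error of 0.18, had an adjusted p of 0.287 in that test by edgeR.

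The plaque genes gave another picture. DSP had 4015, 4139 and 4926 CPM in the SM sheep, against 4288, 4900.3 and 4912 in the STH sheep, with SM3 the highest of all 6. JUP, which also serves in adherens junctions, had 1269 CPM in both SM1 and SM2, 1749 in SM3, and 1294, 1191 and 1280.1 in the STH sheep. Without SM3 the JUP values were thus close together, and its log2 fold change of 0.19 (standard error 0.17) was 0.03 when SM3 was left out. PKP1, a plakophilin of stratified epithelium, had 229, 215 and 276 CPM in the SM sheep, against 224, 242 and 263 in the STH sheep. The log2 fold changes of DSP and PKP1 were -0.11 (standard error 0.16) and -0.02 (standard error 0.15), and the adjusted p of all 3 plaque genes lay between 0.535 and 0.953 by edgeR's quasi-likelihood test. SM3, the sheep with the lowest value in 6 of the 7 cadherins, had the highest value of all sheep in each of the 3 plaque genes.

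Since SM3 also had the shortest count-weighted exon length, the comparison was repeated after each sheep's trend of expression on exon length had been removed. The differences of the cadherins became smaller, to -0.45 for DSG1, -0.49 for DSG3, -0.27 for DSG2, -0.08 for DSG4, -0.73 for DSC1, -0.44 for DSC2 and -0.27 for DSC3, while DSP, the longest member at 9415 bases of exon, changed sign to 0.21. JUP, at 3606 bases, moved to 0.30, and PKP1, at 1431 bases the shortest, to -0.10. The median over all genes tested moved as well, from 0.02 to 0.08. No member passed the thresholds (background 0.0522%), and 3 members, DSG1, DSC1 and DSC2, kept every STH sheep above every SM sheep (background 11.9%). Leaving out SM1 made the cadherin differences larger. Without it, DSG1 and DSC1 passed both thresholds, at log2 fold changes of -0.93 and -1.19 (adjusted p = 0.0412 and 0.0169 by edgeR's quasi-likelihood test, up to 0.627 for both over the alternatives), but so did 7.73% of all genes. All 7 cadherins then had an unadjusted p under 0.05 and every STH sheep above both SM sheep, beside 17.6% and 25.1% of all genes. Leaving out SM3, the sheep lowest in 6 of the 7 cadherins, made all 7 differences smaller. Without it DSC1 had -0.70, DSG1 -0.49, DSG3 -0.45, DSC2 -0.32, DSG2 -0.28, DSC3 -0.28 and DSG4 -0.27. Leaving out STH2 left DSC3 at -0.25, with an unadjusted p under 0.05 for DSC1 alone, beside 4.21% of all genes.

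**Figure D2:**
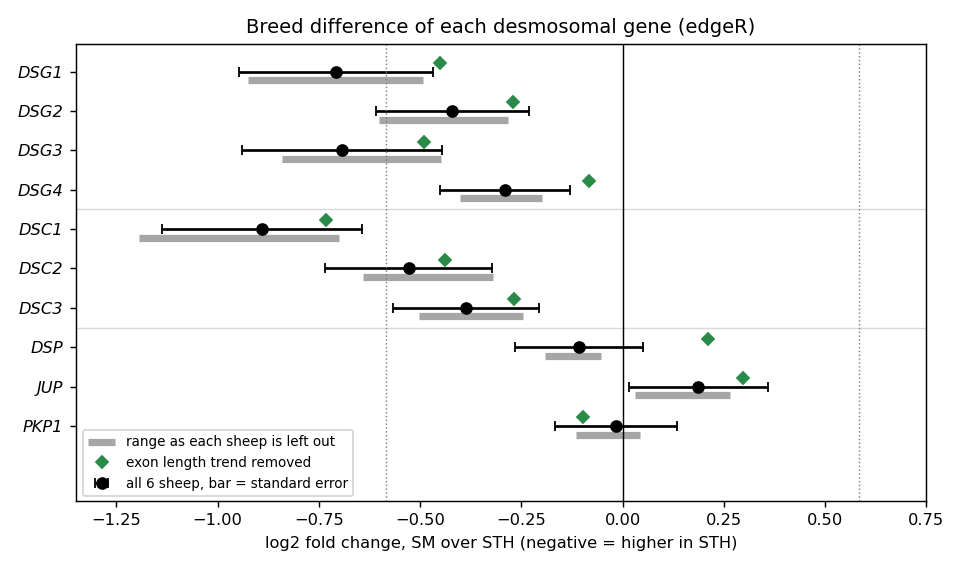
Log2 fold change of each desmosomal gene, SM over STH, with all 6 sheep (black, bar of 1 standard error), after removal of the exon length trend (green) and as the range when each sheep is left out in turn (grey). Dotted lines mark the 1.5-fold threshold. All 7 cadherins lie below 0 in every one of these fits, down to -1.19 for DSC1, whereas DSP changes sign to 0.21 without the length trend and PKP1 ranges from -0.12 to 0.04.

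Along the chromosome the genes on either side of the gap, DSG1 at -0.71 and DSC1 at -0.89, had the most negative log2 fold changes of the cluster with all 6 sheep. DSG3, at -0.69, was close to DSG1, and the order depended on the fit. Without the length trend or without STH2, DSG3 was more negative than DSG1, and without SM2 or STH3 it was the most negative of the 7, at -0.83 and -0.84 beside -0.81 for DSC1 in both. On the desmocollin side the values became smaller with distance from the gap, from DSC1 through DSC2 at -0.53 to DSC3 at -0.39. On the desmoglein side there was no such order, since DSG4 at -0.29 lies between DSG1 and DSG3 at -0.69. Each of these values has a standard error between 0.16 and 0.25, and the differences between genes of the cluster were not tested. Among the genes listed nearest to the cluster, B4GALT6 had between 106 and 775 counts per sheep, while TTR had no more than 4.

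**Figure D3:**
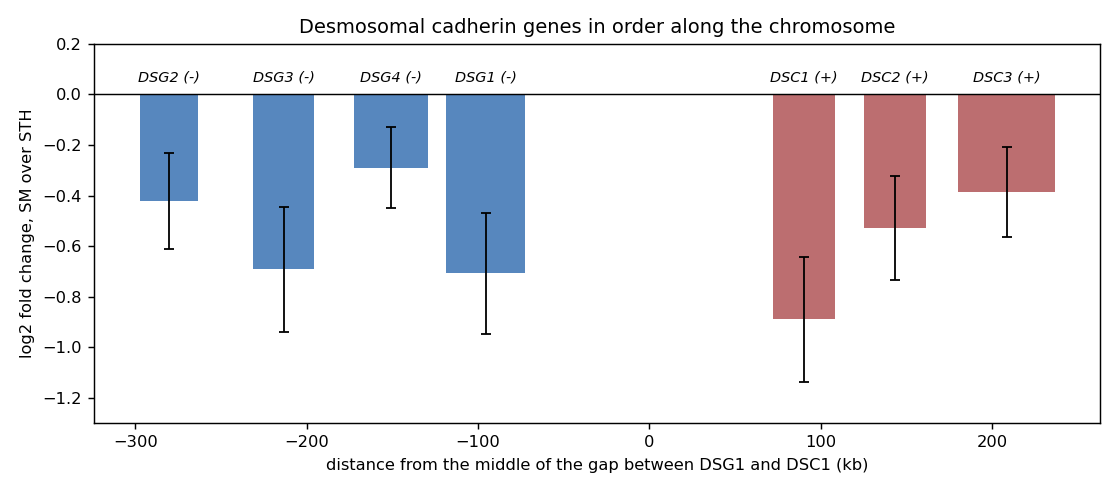
Log2 fold change, SM over STH (bars from 0, whiskers of 1 standard error), of the 7 cadherin genes at their distance in kb from the middle of the gap between DSG1 and DSC1, with the strand in brackets. Bar width is the length of the gene, desmogleins are blue and desmocollins red. DSG1 (-0.71) and DSC1 (-0.89) flank the gap, and DSG4 (-0.29) is the smallest of the 7.

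To compare levels between genes, the deposited RPKM was used, which is per exon length. DSP was the most abundant member in all 6 sheep, at 327 ± 41.1 RPKM for SM and 341 ± 19.1 RPKM for STH sheep (SD, n = 3, here and below), and it ranked 184th among all listed genes by its mean. JUP came next in all 6 sheep, with 279.8 ± 57.0 and 238 ± 14.6. PKP1 had 118 ± 16.4 and 116 ± 7.52, a value that rests on its 1431 annotated exon bases, and it lay above DSG1 in 5 of 6 sheep. Among the cadherins DSG1 led with 74.4 ± 20.1 and 118 ± 19.4 RPKM, followed by DSC1 and DSC3 in the order of the means. In SM3, however, DSC3 at 54.75 RPKM lay above DSG1 at 53.04. DSC1 and DSC3 could not be ordered, as DSC1 was the higher one in 4 of 6 sheep. DSG4 came next by its mean, although in SM3 it lay above DSC1, at 40.46 against 40.07 RPKM. Among themselves DSG4, DSC2, DSG3 and DSG2 stood in the same order in all 6 sheep, with DSG2 at 9.04 ± 1.73 and 11.7 ± 1.48 RPKM. Summed over the cadherins and set against the sum over the plaque genes, the RPKM ratio was 0.510, 0.4004 and 0.256 in SM1, SM2 and SM3, and 0.553, 0.646 and 0.536 in STH1, STH2 and STH3. All SM sheep thus lay below all STH sheep, and SM3 stood furthest from the rest. RPKM does not remove each sheep's trend on exon length, so the ratio is not free of that trend. This split into cadherins and plaque genes was chosen after their values had been seen, and no test was made of it.

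The mixture of desmogleins was broadly alike in the breeds. DSG1 supplied 57.0%, 56.6% and 48.5% of the summed desmoglein RPKM in SM1, SM2 and SM3, and 53.8%, 63.7% and 61.0% in STH1, STH2 and STH3. DSG4, the follicle desmoglein, supplied 27.6%, 25.7% and 37.0% in the SM and 29.0%, 19.99% and 24.4% in the STH sheep. In both genes the breeds overlapped, and SM3 had the lowest share of DSG1 and the highest of DSG4. DSG3 made up 7.73% to 11.7% and DSG2 5.44% to 6.86% over the 6 sheep. Among the desmocollins, DSC1 supplied 43.7%, 35.8% and 36.6% in the SM and 42.6%, 45.3% and 53.7% in the STH sheep, while DSC3 supplied 42.6%, 46.5% and 50.01% and 41.4%, 41.1% and 33.8%. For DSC3 the lowest SM sheep was just above the highest STH sheep. DSC2 stayed between 12.4% and 17.7%.

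**Figure D4:**
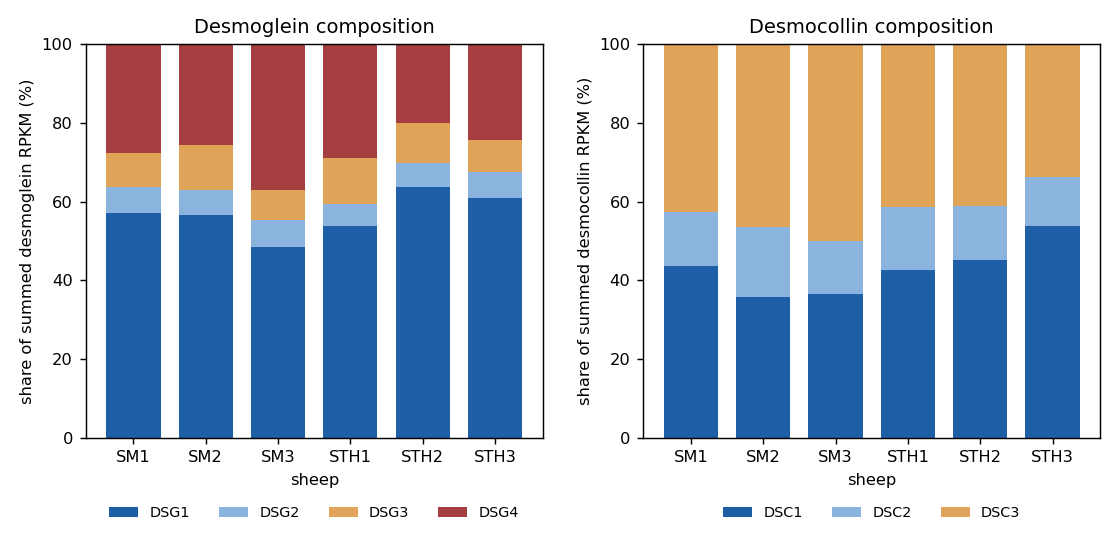
Share of each gene in the summed RPKM of its family in each sheep, for the 4 desmogleins (left) and the 3 desmocollins (right). DSG1 ranges from 48.5% to 63.7% with overlap of the breeds, and DSC3 lies between 42.6% and 50.01% in SM and between 33.8% and 41.4% in STH sheep.

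Ratios of counts within a sheep do not depend on how the libraries are scaled. For 5 pairs the breeds were compared with a two-sided exact permutation of the sheep, which cannot give a p below 0.1 with 3 against 3, so that no pair could pass. The samples are whole skin, so a ratio cannot be assigned to layers of the epidermis or to the follicle. The log2 ratio of DSG1 over DSG3 was 3.11, 2.74 and 3.06 in the SM and 2.61, 3.03 and 3.30 in the STH sheep. Its mean was 2.97 ± 0.20 in the SM and 2.98 ± 0.35 in the STH sheep (each SD, n = 3). The difference was -0.01 (exact permutation p = 1, adjusted p = 1 over the 5 pairs), and it changed sign when SM2, STH2 or STH3 was left out. The corresponding desmocollin ratio, DSC1 over DSC3, was 0.50, 0.09 and 0.02 in the SM and 0.51, 0.61 and 1.14 in the STH sheep. SM1 and STH1 were nearly equal in it, at 0.505 and 0.511, and the other sheep were further apart. The breed difference was -0.55 (exact permutation p = 0.1, adjusted p = 0.25), and -0.35 without STH3.

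DSG4 over DSG3 was 1.57, 1.11 and 2.17 in the SM and 1.22, 0.87 and 1.48 in the STH sheep, with overlap of the breeds and a difference of 0.43 (exact permutation p = 0.4, adjusted p = 0.5). This difference was 0.15 without SM3, 0.26 without STH2 and 0.68 without SM2. For DSC2 over DSC3 the difference was -0.17 (exact permutation p = 0.4, adjusted p = 0.5), and it was -0.04 without SM3 and -0.30 without SM2. DSP over JUP was 1.66, 1.71 and 1.49 in the SM and 1.73, 2.04 and 1.94 in the STH sheep, a difference of -0.28 with no overlap (exact permutation p = 0.1, adjusted p = 0.25). DSP is the longer of the pair, and the breed difference of this ratio is not free of the length trend given above.

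**Figure D5:**
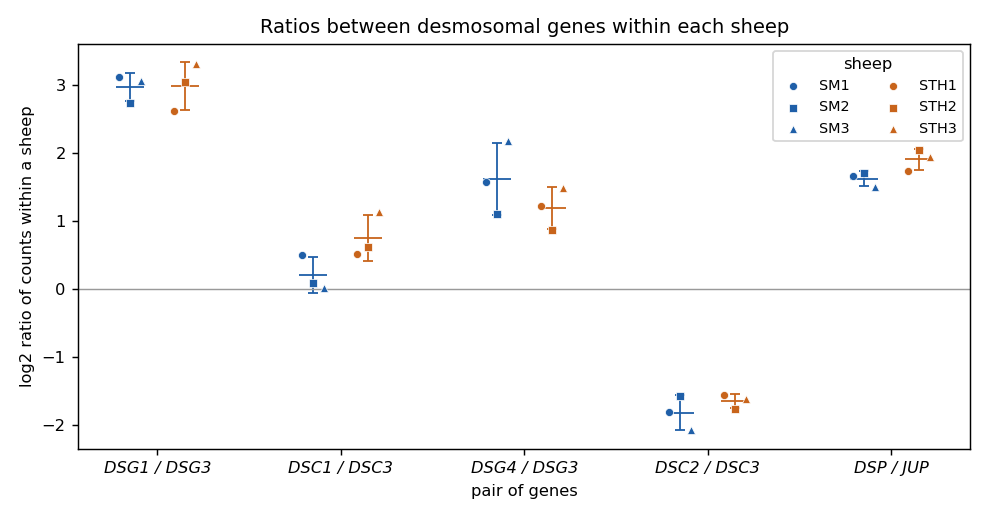
Log2 ratio of counts between pairs of desmosomal genes within each sheep, blue for SM and orange for STH, with the mean as a bar and whiskers of 1 SD (n = 3). DSG1 / DSG3 overlaps (means 2.97 and 2.98), whereas DSC1 / DSC3 and DSP / JUP are lower in all SM than in all STH sheep, the former by a narrow margin between SM1 and STH1.

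Of the 8 other desmosome-associated genes, all were tested, none passed the thresholds and none had an unadjusted p under 0.05. Over all genes tested 0% passed and 2762 of 15320 had such a p. The median log2 fold change of the 8 genes was -0.12, and 7 of 8 were below 0, beside 48.6% of all genes. With the length trend removed, however, the median was 0.12, beside 0.08 over all genes tested. CDSN, the corneodesmosin that joins the dead outer cells, had the most negative value at -0.50 (standard error 0.27). It had 541, 612 and 751 CPM in the SM and 613, 806 and 1278 in the STH sheep, which overlapped. PERP, a membrane protein needed for desmosome assembly, had 1134, 1304 and 1113 CPM in the SM and 1306, 1459 and 1570 in the STH sheep, without overlap and with SM2 next to STH1. PKP3, a further plakophilin of the epidermis, was higher in every SM sheep, at 214, 221 and 315 CPM against 209, 195 and 211. At 0.29 on the log2 scale (standard error 0.18) the gap was small, and as with JUP the highest value was that of SM3. PERP and PKP3 were the only genes of the 8 without overlap, 1 in each direction. Over all genes tested, 13.3% had every STH sheep above and 12.3% every SM sheep above. PKP2, the plakophilin of heart and simple epithelia, was low, with means of 13.8 CPM in SM and 14.0 CPM in STH sheep. PPL and EVPL, which encode plakins of the cornified envelope, had -0.10 (standard error 0.16) and -0.08 (standard error 0.18), and PKP4 and KAZN had -0.14 (standard error 0.14) and -0.17 (standard error 0.16).

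Of the 9 keratins that desmosomes anchor, 8 were found, at a median log2 fold change of -0.45. All 8 were below 0, beside 48.6% of all genes. In 2 of the 8 every STH sheep lay above every SM sheep, beside 13.3% of all genes. An unadjusted p under 0.05 with higher levels in STH sheep was found for 4 of the 8, beside 10.8% of all genes. None passed by edgeR's quasi-likelihood test, whereas DESeq2 called 3 (2.89% of all genes) and the likelihood ratio test 2 (2.3% of all genes). KRT10, a keratin of the layers above the basal one, had 531, 627 and 523 CPM in the SM and 793, 1600 and 1863 in the STH sheep. The log2 value of -1.34 (standard error 0.29) was more negative than that of DSG1 or DSC1. For KRT1, its partner, it was -1.20 (standard error 0.35), with SM2 above STH1. LOC101112304, which the gene table names KRT6A, had -0.77 (standard error 0.22). The paper describes another entry as a keratin 6A-like gene, also higher in STH sheep, which was not in this list. The 7 suprabasal markers found summed to between 2987 and 3758 CPM in the SM and between 3452 and 7205 in the STH sheep. Of these, 6 of 7 had log2 fold changes below 0, beside 48.6% of all genes, and the median was -0.16. KRT1, KRT10 and IVL (-1.05) differed most, whereas SBSN, KRT2, DMKN and KRTDAP lay between -0.16 and 0.07. The keratins KRT1, KRT2 and KRT10 were in the keratin list above as well, so the lists are not separate. The 6 basal markers summed to between 9491 and 11865 CPM in the SM and 11523 and 16133 in the STH sheep, with 5 of 6 below 0, beside 48.6% of all genes. Among them KRT5, KRT14 and KRT15 were likewise in the keratin list. The median log2 fold change of the 6 basal markers was -0.14. With the length trend removed it was 0.0008, beside 0.08 over all genes tested. Of 10 wool cortex and cuticle markers 4 were found, and these went the other way, all above 0, whereas 48.6% of all genes were below 0. Their sums of 5673 to 10923 CPM in the SM, highest in SM3, and 3851 to 7445 in the STH sheep overlapped. Among the 4 only KRT36 had every SM sheep above every STH sheep, as in 12.3% of all genes. No defining marker of these lists was at 0 among those found, and the part of cell composition in the values of the cadherins was not tested.

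In the adherens junction list 8 of 9 genes had log2 fold changes above 0, with a median of 0.15, whereas 48.6% of all genes were below 0. An unadjusted p under 0.05 was found for 0 of 9, beside 2762 of the 15320 genes tested. CDH1, the E-cadherin of epithelia, had 659, 660 and 813 CPM in the SM and 574, 627 and 622 in the STH sheep, so that every SM sheep was above, by 0.23 on the log2 scale (standard error 0.15), at an adjusted p of 0.401 by edgeR's quasi-likelihood test. It was the only 1 of the 9 with every SM sheep above, as in 12.3% of all genes. PVRL4, an alias of NECTIN4, had 0.19 (standard error 0.14) and CTNNA1 0.15 (standard error 0.15). Of the 6 hemidesmosome genes, which fix basal cells to the basement membrane, 1 had an unadjusted p under 0.05. This was close to the share over all genes tested, 2762 of 15320. The gene was LOC101113020, named DST in the gene table, at -0.65 (standard error 0.27) and with 17592 exon bases. ITGA6 had -0.43 (standard error 0.23) and CD151 0.42 (standard error 0.23).

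The expression pattern of each member over the 6 sheep was compared with that of all tested genes by the root mean square difference of log2 CPM, centred on the mean of each gene. The genes most like DSG1 were GPBP1, CAPRIN2 and RUFY2, at differences of 0.03, 0.04 and 0.04. Those most like DSC1 were LOC101108887, SLC16A7 and RFX3, at 0.05, 0.06 and 0.07, and those most like DSG4 were PANK3, ALG10 and CCDC126, at 0.05, 0.08 and 0.08. For these members other genes stood nearer in pattern than any desmosomal gene. DSG1 and DSC1 were each other's nearest member, at a difference of 0.17. Among the other tested genes DSC1 was the 569th nearest to DSG1, and DSG1 the 146th nearest to DSC1. DSG3 and DSC2 were likewise each other's nearest member, at 0.12, as were DSP and PKP1, at 0.07. DSC2 was the 17th nearest to DSG3, and DSG3 the 210th nearest to DSC2. PKP1 was the 28th nearest to DSP, and DSP the 45th nearest to PKP1. Over the 10 members the rank of the nearest member ranged from 17 to 1954, the latter for JUP.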

How the data were processed

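Total RNA of each skin was made into 1 TruSeq library. FastQC is named in the submitters' processing notes, and per the paper's methods the authors mapped the reads to the assembly Oar_v4.0 in CLC Genomics Workbench, through its advanced plugin for RNA-seq. The authors deposited total counts per gene as whole numbers without normalization, RPKM per exon length and library size, TPM, and a score that the files head CPM. The deposited TPM and score were not used. Which reads enter a count is not given in the sources used here. The spread between sheep is that of 3 animals per breed, sampled once.

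A gene was tested when 3 or more sheep had at least 10 counts of it. These 15320 genes were TMM-normalized and tested by the quasi-likelihood test of edgeR 4.0.16 in R 4.3.3 with breed as the only term and Benjamini-Hochberg adjustment over all genes. The standard error is the size of the log2 fold change over the square root of F. DESeq2 1.42.0 and the likelihood ratio test were alternatives. Scripts were tested on simulated data. Exon lengths were recovered from count over RPKM, which gave whole bases within 0.01 for at least 99.99% of genes, and the length trend was a loess fit of span 0.5. Ratios used a pseudocount of 0.5. At these depths 3 counts equal 0.0672 to 0.104 CPM, a floor that covers counting error only.

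The members and lists were chosen with earlier results of these data known. Named are all members, the 8 desmosome-associated genes, up to 3 genes with the smallest unadjusted p of every other list, 3 nearest patterns for a few members, and markers. KRT5, B4GALT6, TTR and the LOC genes of the cluster were named beyond this rule. Of the other lists, missing symbols were matched by gene ID to a RefSeq table of the assembly ARS-UI_Ramb_v3.0, used for names only. Sheep carry no shared numbers, so none were paired. Other normalizations, filters, tests, a removed length trend and leaving out each sheep were tried.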

Additional observations from a re-analysis of the deposited data

How the results depend on the processing

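No member passed the thresholds under RLE or upper quartile normalization, without a count filter, with a filter of 50 counts, without the length trend or with no fold threshold. DESeq2 and the likelihood ratio test each passed 1, DSC1, beside 2.89% and 2.3% of all genes. As each sheep was left out, the members passing ranged from 0 to 2, those with an unadjusted p under 0.05 from 1 (without STH2) to 7 (without SM1), and those without overlap from 4 to 7 (without SM1). The median log2 fold change ranged from -0.55 to -0.28, and over the plaque genes alone, an alternative added after seeing the data, it was -0.017. The 7 cadherins were below 0 under all 13 alternatives and JUP above 0. DSP reversed to 0.21 without the length trend, and PKP1 to 0.016 with upper quartile normalization and to as much as 0.044 as sheep were left out (range from -0.12). The difference of DSG1 over DSG3 ranged from -0.20 to 0.15 as sheep were left out. No other ratio changed sign, with RPKM, a pseudocount of 5 or any sheep left out. The causes were not tested. No paired analysis was possible because the sheep labels are individual animals without shared numbers. Every member had at least 2113 counts in each sheep, and there were 3 sheep per breed.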

Other observations

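Among 8 transcription factors of keratinocytes and follicles, 7 had log2 fold changes above 0, with a median of 0.31, and none passed the thresholds. Over all genes tested 48.6% were below 0, 0% passed and 2762 of 15320 had an unadjusted p under 0.05. FOXN1, which drives differentiation in hair and nail, was the only factor with such a p. It had 588, 561 and 786 CPM in SM1, SM2 and SM3 and 512, 274 and 427 in STH1, STH2 and STH3, without overlap (log2 fold change 0.67, standard error 0.24). FOXN1 was the only 1 of the 8 with every SM sheep above every STH sheep, as in 12.3% of all genes. HOXC13, a regulator of hair keratins, had 282, 340 and 560 CPM in the SM and 336, 261 and 277 in the STH sheep, so that SM1 lay below STH1. GRHL3, a factor of epidermal barrier formation, had 29.1, 40.9 and 45.7 CPM in the SM and 31.8, 28.1 and 33.0 in the STH sheep, again with overlap through SM1.

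In the marker lists of other cells, the 5 smooth muscle markers summed to 1039 to 1249 CPM in the SM and 1653 to 2111 in the STH sheep. The 3 endothelial markers summed to 428 to 558 and 259 to 434 CPM, the 4 fibroblast markers to 10846 to 15859 and 12675 to 15631, and the 3 leukocyte markers to 64.9 to 92.3 and 81.3 to 91.3. The 3 melanocyte markers tested summed to 4.53 to 5.98 and 4.12 to 4.93 CPM. The 6 inner root sheath markers found summed to 10712 to 14038 CPM in the SM and 12715 to 17863 in the STH sheep.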
